A study of Homo sapiens with 12 samples.

Results

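The endoplasmic reticulum (ER) folds secreted and membrane proteins, and HSPA5, HSP90B1, PDIA4, PDIA6, DNAJB9, SDF2L1, CALR, CANX, HERPUD1 and XBP1 encode chaperones, folding enzymes and regulators of that compartment. They were chosen by name as known genes of ER folding and of the unfolded protein response, and are 10 of the 34687 genes listed for these arrays. Earlier results of these data were known when the 10 were chosen. Counts set beside shares of all genes therefore describe the set and are no test. Levels were measured in HCT116, a human colorectal cancer line, and in PANC1, a human pancreatic adenocarcinoma line. Cells received 10 uM ICG-001, a small molecule that binds the histone acetyltransferase CBP and blocks its contact with β-catenin, or 10 uM C646, which competes for the acetyl-CoA pocket of both CBP and p300. Controls received 0.05% DMSO, and each treatment was collected after 12 and 96 h. The question was how the transcriptome responds when CBP alone, or both acetyltransferases, are targeted.

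The 12 groups were thus HCT116 in DMSO, ICG-001 or C646 at each time, and PANC1 in the same treatments and times. Each group had 1 column of signal intensity, which the authors made by averaging 2 arrays, or 3 for PANC1 with ICG-001 at 12 h. No spread between replicates could therefore be computed, and no difference given here has a test, an SD or a p-value. Each line stands for 1 tumour, no genetic change was made in either, and the DMSO columns served both drugs of their line and time. Per the study's methods, cells for 96 h were seeded thinner, were split during treatment and had medium and drug renewed daily, so that time and culture history cannot be told apart.

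When unfolded proteins build up in the ER lumen, membrane sensors respond. IRE1 (ERN1) splices XBP1 mRNA so that it encodes an active transcription factor, ATF6 is cut in the Golgi to release another, and PERK (EIF2AK3) slows translation and raises ATF4 and CHOP (DDIT3). ATF6 and XBP1 act on ER stress response elements in promoters of chaperone genes, and ATF4 acts on genes of amino acid supply and of stress feedback. The array read the total XBP1 mRNA, and its spliced form was not analysed here.

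The ER stress response element (ERSE) is shown for the members because it is the promoter feature by which this gene set is usually recognised. Promoters were RefSeq sequences of GRCh38.p14, 250 bases before to 50 bases after each annotated start, and all 10 genes had at least 1. Both strands were searched for ERSE as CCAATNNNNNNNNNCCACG, for ERSE-II as ATTGGNCCACG and for the XBP1-type element as TGACGTGG. In the sites below the capitals mark the fixed letters of the motif, and 5 bases stand on each side.
HSPA5, chr9:125241386-125241414, minus strand: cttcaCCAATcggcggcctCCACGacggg
HSP90B1, chr12:103930211-103930239, plus strand: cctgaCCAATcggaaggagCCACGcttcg
HSP90B1, chr12:103930316-103930344, minus strand: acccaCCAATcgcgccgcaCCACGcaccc
PDIA6, chr2:10812848-10812876, minus strand: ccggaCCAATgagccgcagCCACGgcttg
CALR, chr19:12938379-12938407, minus strand: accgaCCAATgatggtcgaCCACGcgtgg
CANX, chr5:179698773-179698801, plus strand: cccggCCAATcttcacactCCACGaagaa
XBP1, chr22:28800598-28800626, minus strand: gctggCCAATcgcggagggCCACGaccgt
SDF2L1, ERSE-II, chr22:21642109-21642129, minus strand: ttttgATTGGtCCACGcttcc
HERPUD1, ERSE-II, chr16:56932020-56932040, plus strand: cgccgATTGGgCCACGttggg

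An exact ERSE lay in the promoter of 6 members and of 25 of all 27305 genes with a window, a share of 0.0916%. An exact ERSE-II lay in SDF2L1 and HERPUD1 and in 19 genes in all, or 0.0696%. The XBP1-type element was in none of the 10 members and in 253 genes, or 0.927%. HSP90B1 was the member with 2 exact ERSE, at 175 and 70 bases before its start, and the HSPA5 element ended 47 bases before the start. The elements of CALR and SDF2L1, and the second of HSP90B1, read against the direction of their gene. With up to 1 mismatch allowed, an ERSE lay in 8 members, SDF2L1 and HERPUD1 being those added, and in 517 genes, or 1.89%. No match was found for PDIA4 and DNAJB9, which says only that these letters are not in these windows. A match is a description of the sequence and not a bound site.

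All 10 genes were above the detection limit in all 12 columns, the limit being the upper edge of the unexpressed probes of a column, at 145 to 146 in HCT116 and 138 to 139.8 in PANC1. The member signal nearest the limit was still 1.63 times it. Between 42.7% and 44.7% of the listed genes were above the limit in a column. Columns of 1 line had almost the same distribution of values while those of different lines had not, so the lines were set side by side through ratios within a line. Genes under the limit in a pair of columns had log2 ratios with an SD of 0.063 to 0.075, which describes noise near background and not the spread between cultures. In HCT116, EPCAM, CDH1, CDX2, KRT8 and KRT18 of 10 colon epithelium markers were above the limit in all 6 columns, while CDH17, VIL1, CDX1 and LGALS4 were in none. Those 5 were also above it in all 6 PANC1 columns. Among duct markers in PANC1, KRT7, KRT19, SOX9, MUC1 and PDX1 were above it throughout, and CFTR, ONECUT1 and SLC4A4 in none. KRT19, SOX9, MUC1 and PDX1 were above it throughout in HCT116 as well, so these lists did not separate the lines. None of 6 acinar markers passed in PANC1. Of 4 mesenchymal markers, VIM read 14637 to 18144 in PANC1 against 257 to 335 in HCT116, above the limit throughout in both. CDH2 was above it in all 6 PANC1 columns, ZEB1 in 5 and FN1 in none. In HCT116 CDH2, ZEB1 and FN1 were above it in none. Of 6 blood and endothelial markers CD14 alone passed, at 142 to 173 in PANC1.

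With ICG-001 the genes of this set moved apart rather than together. In HCT116 the stress regulator XBP1, the central chaperone HSPA5, its cochaperone DNAJB9 and the degradation factor HERPUD1 were higher at both times, and the lectin chaperone CALR was lower. In PANC1, HERPUD1 was higher at both times and HSPA5 at 96 h, whereas CALR, CANX, PDIA4 and SDF2L1 were 1.54 to 2.55-fold lower at 96 h. With C646 few members passed 1.5-fold, and in PANC1 CALR was lower at both times. A gene was counted as higher or lower at a ratio of at least 1.5 with a signal above the limit in 1 of the columns compared.

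In HCT116 with ICG-001 at 12 h, 4 of 10 members were higher, against 5.09% of the 16138 genes compared, and 1 was lower, against 4.39%. The 4 were HSPA5, DNAJB9, HERPUD1 and XBP1 and the 1 was CALR. At 96 h the counts were again 4 higher and 1 lower, by the same 5 genes, where 5.42% and 5.39% of all genes were. With C646 at 12 h, 0 members were higher and 0 lower in HCT116, against 2.76% and 1.63%. With C646 at 96 h, DNAJB9 was the 1 member higher and 0 were lower, against 1.99% and 1.28%.

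In PANC1 with ICG-001 at 12 h, 1 member, HERPUD1, was higher and 0 were lower, against 2.32% and 0.357% of genes. At 96 h, HSPA5 and HERPUD1 made 2 higher and PDIA4, SDF2L1, CALR and CANX made 4 lower, where the shares of all genes were 4.06% and 3.76%. With C646 at 12 h, 1 member was higher, HSP90B1, and 1 lower, CALR, against 4.23% and 2.86%. With C646 at 96 h, 0 were higher and CALR was the 1 lower, against 2.96% and 1.25%.

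The median log2 ratio over the members was small beside the ratios of single genes. For ICG-001 in HCT116 it was 0.24 at 12 h and 0.12 at 96 h, in PANC1 0.06 at 12 h and -0.31 at 96 h, and it lay between 0.08 and 0.14 in the 4 comparisons of C646. Over DMSO of the other time the PANC1 medians were -0.12 and -0.018 for ICG-001 at 12 and 96 h and -0.13 for C646 at 12 h, so that their sign or size rests on the DMSO column. HERPUD1 was above its DMSO column in 8 of 8 drug comparisons, with log2 ratios of 0.08 to 1.17. CALR and PDIA4 were below theirs in 8 of 8, at -1.35 to -0.50 and -1.14 to -0.12. ICG-001 and C646 were each set against the same DMSO column, so a high or low DMSO value would move both drugs alike.

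**Figure D1:**
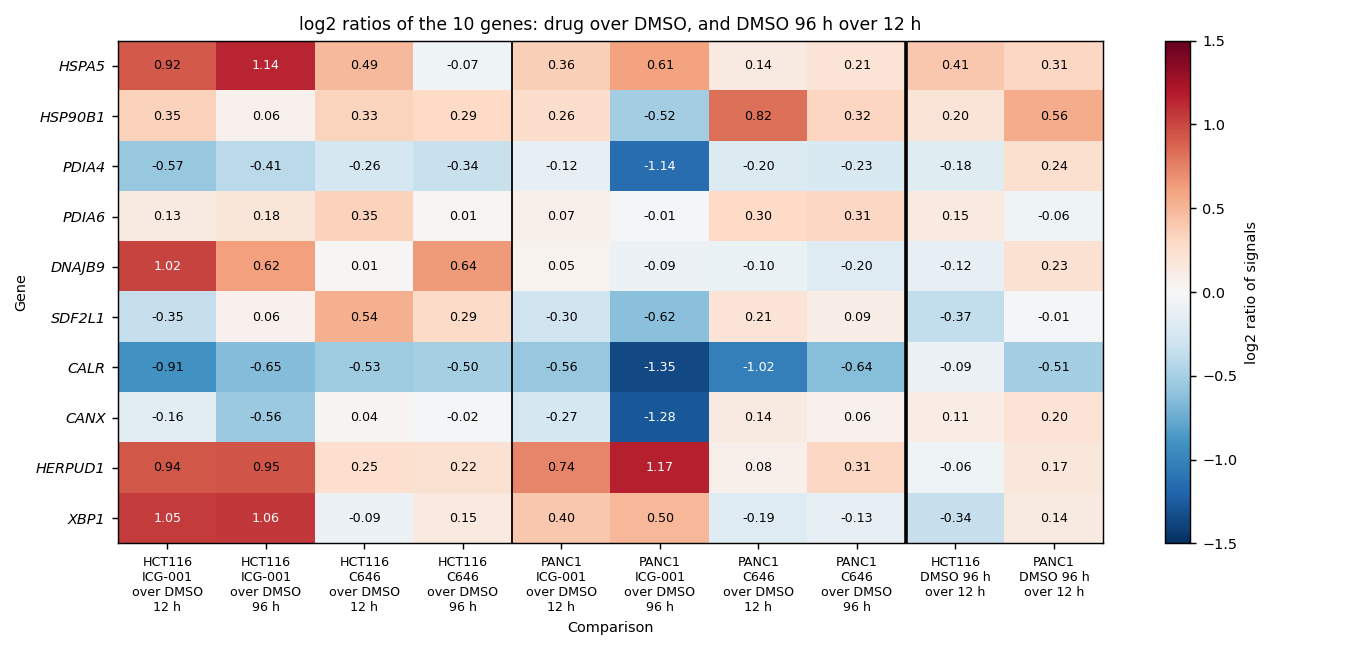
log2 ratios of the 10 genes (rows) in each drug comparison against DMSO and, at the right, in DMSO at 96 h over 12 h; red is higher, blue lower, and each cell holds its log2 ratio from 1 pair of columns. The rows of HERPUD1 and XBP1 are red under ICG-001 in both lines, the CALR row is blue in all 8 drug comparisons, and the PANC1 ICG-001 96 h column holds both the reddest HERPUD1 cell, 1.17, and the bluest CALR cell, -1.35.

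XBP1 encodes the transcription factor of the IRE1 branch. Its signal in HCT116 was 2216 and 1745 in DMSO at 12 and 96 h, 4574 and 3643 in ICG-001, and 2079 and 1935 in C646. In PANC1 it was 1761 and 1941 in DMSO, 2323 and 2736 in ICG-001, and 1542 and 1779 in C646. In each line both ICG-001 columns lay above all the DMSO and C646 columns. The change with ICG-001 was 2.06-fold and 2.09-fold in HCT116, where 150 and 165 of the genes compared had a higher ratio. In PANC1 it was 1.32-fold and 1.41-fold, under the threshold.

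HSPA5 encodes BiP, the HSP70 of the ER lumen, which binds unfolded chains and holds the stress sensors inactive. In HCT116 its signal was 553 in DMSO at 12 h and 734 at 96 h, 1047 and 1618 in ICG-001, and 776 and 699.6 in C646. In PANC1 it was 704 and 872 in DMSO, 902 and 1327 in ICG-001, and 774 and 1009 in C646. The ICG-001 96 h column was the highest of its line in both. ICG-001 over DMSO of the same time gave HSPA5 ratios in HCT116 of 1.89 and 2.20, for 12 and 96 h, and in PANC1 of 1.28 and 1.52. The lower DMSO value at 12 h in HCT116 bears on the first of these, since over the 96 h DMSO column the log2 ratio was 0.51 in place of 0.92. For C646 the HCT116 log2 ratios of HSPA5 were 0.49 and -0.07, those of PANC1 0.14 and 0.21.

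DNAJB9, also called ERdj4, is a J-domain partner of BiP that recruits it to IRE1. In HCT116 its signal was 396 and 364 in DMSO, 800.2 and 558 in ICG-001, and 399.8 and 565 in C646. In PANC1 it was 506 and 595 in DMSO, 525 and 559 in ICG-001, and 472 and 519 in C646. HCT116 thus held values of up to 2.02-fold over DMSO, at 12 h with ICG-001, followed by 1.53-fold at 96 h, and 1.55-fold with C646 at 96 h. Over the 12 h DMSO column the values at 96 h were 0.50 and 0.51 on the log2 scale, under the threshold. In PANC1 all 4 log2 ratios lay between -0.20 and 0.05.

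SDF2L1 is a luminal partner of BiP and of the ER DNAJ proteins. In HCT116 it read 2098 and 1623 in DMSO, 1652 and 1697 in ICG-001, and 3047 and 1988 in C646. In PANC1 it read 1793 and 1774 in DMSO, 1453 and 1151 in ICG-001, and 2069 and 1894 in C646. In PANC1 both ICG-001 columns were below and both C646 columns above the DMSO columns. SDF2L1 was 1.54-fold lower with ICG-001 at 96 h in PANC1, and its HCT116 ratio with C646 at 12 h was 1.45, short of the threshold.

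HSP90B1 encodes GRP94, the HSP90 of the ER, whose clients include integrins and Toll-like receptors. Its signal in HCT116 was 7062 and 8103 in DMSO, 8978 and 8473 in ICG-001, and 8899.8 and 9931 in C646. In PANC1 it was 4155 and 6119 in DMSO, 4986 and 4269 in ICG-001, and 7358 and 7654 in C646. The DMSO columns of PANC1 differed from each other by 0.56 on the log2 scale. HSP90B1 was 1.77-fold higher with C646 at 12 h over its DMSO column, a log2 ratio of 0.82, and the ratio was 0.27 over the DMSO column of 96 h. At 96 h the log2 ratio with ICG-001 was -0.52 over DMSO of that time and 0.04 over DMSO of 12 h.

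PDIA4 (ERp72) and PDIA6 (P5) are protein disulfide isomerases, which form and rearrange disulfide bonds in client proteins. PDIA4 read 359 and 316 in HCT116 in DMSO, 242 and 238 in ICG-001, and 300.1 and 250.04 in C646. In PANC1 PDIA4 read 439.7 and 519 in DMSO, 405 and 236 in ICG-001, and 383 and 442 in C646. The PANC1 96 h column with ICG-001 stood well under the other 5 columns of the line. PDIA4 was 2.20-fold lower there, and 58 of 16409 genes had a lower ratio. In HCT116 the ratio with ICG-001 was 1.48-fold lower at 12 h, just short of the threshold, and 1.33-fold lower at 96 h, and it passed at both times, with log2 ratios of -0.86 and -0.63, once the background was modelled and removed.

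PDIA6 had the narrowest range of drug ratios of the 10. It read 729 and 808 in HCT116 in DMSO, 798 and 914 in ICG-001, and 928 and 816 in C646. In PANC1 it read 1389.7 and 1333 in DMSO, 1459 and 1319.8 in ICG-001, and 1707 and 1649.8 in C646. Its log2 ratios lay between -0.01 and 0.35 and none passed the threshold. The isomerases PDIA4 and PDIA6 therefore parted at 96 h with ICG-001 in PANC1, at -1.14 and -0.01.

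CALR (calreticulin, in the lumen) and CANX (calnexin, in the membrane) are the lectin chaperones that hold monoglucosylated glycoproteins while they fold, and both bind calcium. CALR read 1396 and 1315 in HCT116 in DMSO, 742 and 838 in ICG-001, and 964 and 930.3 in C646. In PANC1 CALR read 3233 and 2270.1 in DMSO, 2187 and 890.3 in ICG-001, and 1589 and 1454 in C646. All 8 drug columns were below both DMSO columns of their line. CALR was 1.88-fold and 1.57-fold lower with ICG-001 in HCT116, and 1.48-fold and 2.55-fold in PANC1, where 27 genes had a lower ratio at 96 h. With C646 it was 1.45-fold and 1.41-fold lower in HCT116, and 2.03-fold and 1.56-fold in PANC1. The PANC1 DMSO columns of CALR differed by a log2 ratio of -0.51 between 96 and 12 h, and over the 96 h column the 12 h value with C646 was -0.51 in place of -1.02.

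CANX read 501 and 539 in HCT116 in DMSO, 449 and 365 in ICG-001, and 514 and 532 in C646. In PANC1 CANX read 829 and 953 in DMSO, 688 and 393 in ICG-001, and 913 and 995 in C646. In each line both ICG-001 columns were the lowest, and C646 differed from DMSO by at most 0.14 on the log2 scale. CANX was 2.42-fold lower with ICG-001 at 96 h in PANC1, where 40 genes had a lower ratio, and 1.48-fold lower in HCT116, which passed the threshold with the background removed, at -0.71.

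HERPUD1 encodes a membrane protein that organises the HRD1 complex of ER-associated degradation, by which misfolded proteins go to the proteasome. It read 881 and 842 in HCT116 in DMSO, 1686 and 1625 in ICG-001, and 1049 and 984 in C646. In PANC1 it read 438 and 492 in DMSO, 731 and 1106 in ICG-001, and 464 and 612 in C646. Both ICG-001 columns exceeded the other 4 columns of their line. ICG-001 over DMSO gave HERPUD1 ratios in HCT116 of 1.91 and 1.93, and in PANC1 of 1.67 and 2.25, and at 96 h in PANC1 77 of the genes compared had a higher ratio. Over the 96 h DMSO column of PANC1 the log2 ratio at 12 h was 0.57, just under the threshold, in place of 0.74.

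**Figure D2:**
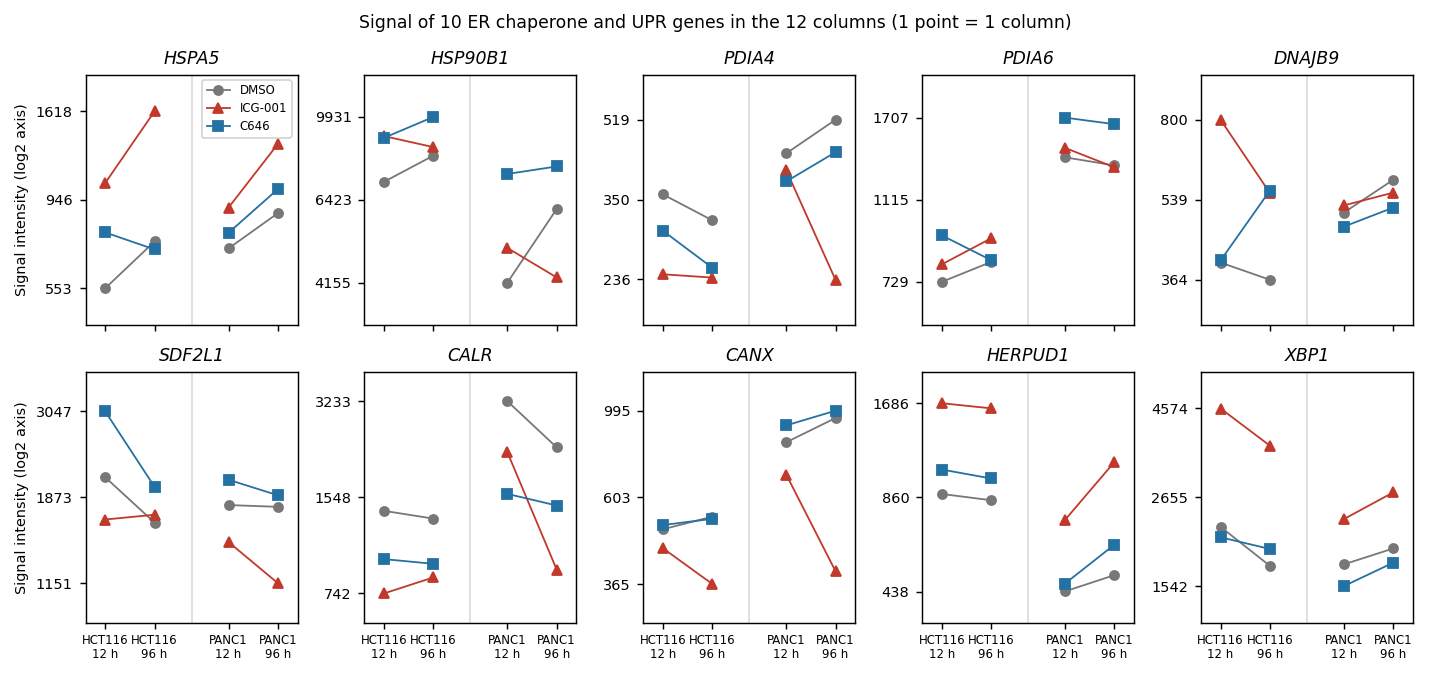
Signal intensity (log2 axis, a separate range for each gene) of the 10 genes in the 12 columns, with DMSO as grey circles, ICG-001 as red triangles and C646 as blue squares, HCT116 at the left and PANC1 at the right of each panel, and lines joining 12 and 96 h of a treatment. Each point is 1 column, with no error bar. ICG-001 is the highest treatment for HERPUD1 and XBP1 and the lowest for CANX in both lines, and DMSO is the highest for CALR.

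To place the DMSO columns themselves, 96 h was set against 12 h in each line. In HCT116, 0 members were higher and 0 lower by 1.5-fold, against 1.64% and 1.65% of genes, with HSPA5 at 0.41 and SDF2L1 at -0.37 the ends of the range. In PANC1 the counts were 0 and 0 as well, against 1.02% and 0.347%, and the range ran from CALR at -0.51 to HSP90B1 at 0.56. Counting a member as changed only where it passed against both DMSO columns of its line, a requirement added after the data were seen, left DNAJB9, HERPUD1 and XBP1 higher at 12 h and HSPA5, HERPUD1 and XBP1 higher at 96 h with ICG-001 in HCT116, with CALR lower at both. In PANC1 it left none for ICG-001 at 12 h, and all 6 at 96 h. For C646 it left CALR in PANC1 at 96 h, and no other. No share of all genes under this requirement is given, here or for the lists below, so these counts have no background beside them.

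The drugs were then compared with each other at the same dose and time, which does not involve DMSO. In HCT116 at 12 h, 3 members were higher with ICG-001 than with C646, against 3.65% of genes, and 1 was lower, against 2.98%. XBP1 was 2.20-fold, DNAJB9 2.00-fold and HERPUD1 1.61-fold higher, and SDF2L1 was 1.84-fold lower. At 96 h, HSPA5 at 2.31-fold, XBP1 at 1.88-fold and HERPUD1 at 1.65-fold made 3 higher and 0 were lower, against 3.39% and 3.44%. CALR differed little between the drugs in HCT116, with log2 ratios of -0.38 and -0.15.

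In PANC1 at 12 h, HERPUD1 at 1.58-fold and XBP1 at 1.51-fold made 2 higher with ICG-001 than with C646 and 0 were lower, against 1.67% and 0.988%. At 96 h, HERPUD1 at 1.81-fold and XBP1 at 1.54-fold made 2 higher, against 3.54%. At 96 h 5 members were lower, against 3.7% of genes, and these were CANX at 2.53-fold, PDIA4 at 1.88-fold, HSP90B1 at 1.79-fold, SDF2L1 at 1.65-fold and CALR at 1.63-fold. HERPUD1 and XBP1 were thus higher with ICG-001 than with C646 in all 4 comparisons. With 1 column for each drug, neither a test nor an interval of these differences could be computed.

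The lines were compared through their log2 drug ratios, as HCT116 minus PANC1. With ICG-001 at 12 h, all 10 members had the same sign in both lines, and 2 differed by at least 1.5-fold between lines, against 5.03% of the 14243 genes compared. These were DNAJB9, by 0.96, and XBP1, by 0.65, both larger in HCT116. At 96 h, 6 had the same sign, and 5 differed by at least 1.5-fold, against 9.92%. DNAJB9, PDIA4, CANX, CALR and SDF2L1 all had the higher ratio in HCT116, by 0.69 to 0.73, and the median difference over members was 0.64 where that over all genes was 0.02. HERPUD1 was the 1 member with the higher ratio in PANC1, by 0.22. These calls rest in part on the DMSO columns, since over DMSO of the other time the median difference was 0.34, PDIA4, DNAJB9 and SDF2L1 differed by 0.31, 0.35 and 0.33, and the 3 members past 1.5-fold were CALR at 1.12, HSPA5 at 0.64 and CANX at 0.62. The same change at 12 h left DNAJB9 and XBP1 larger in HCT116, by 1.32 and 1.13. It added CALR with the higher ratio in PANC1, at -0.77, which made 3 in all. No share of all genes is given for these counts over DMSO of the other time. Members with the same sign in both lines then numbered 6 at 12 h and 9 at 96 h, so the sign counts rest on the DMSO columns too. With C646, 0 members differed by at least 1.5-fold at 12 h, against 3.24%, and 1 at 96 h, DNAJB9 by 0.83, against 2.55%. Over DMSO of the other time DNAJB9 differed by 0.48 there and did not pass, while SDF2L1 passed at 12 h. These differences between lines have no test, since a group is 1 averaged column.

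**Figure D3:**
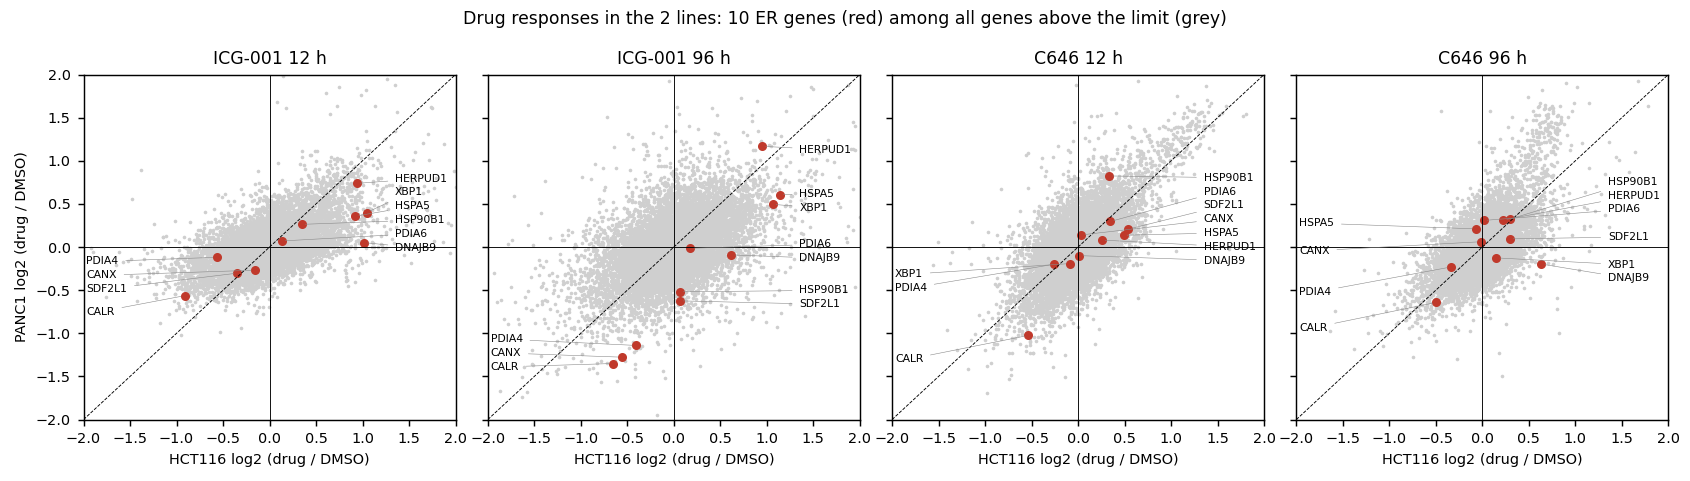
log2 drug over DMSO in PANC1 (vertical axis) against HCT116 (horizontal axis) for ICG-001 and C646 at 12 and 96 h, with the 10 genes in red and named, and all genes above the limit in both lines in grey; the dashed line marks equal ratios, and 7 to 29 genes of a panel lie outside the axes. With ICG-001 at 96 h CALR, CANX and PDIA4 sit at the lower edge of the grey cloud, at -1.35, -1.28 and -1.14 in PANC1, while HERPUD1 sits at its upper right.

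In DMSO the lines held the set at different levels, given as PANC1 minus HCT116 on the log2 scale of the deposited signals. CALR differed by 1.21 at 12 h and 0.79 at 96 h, PDIA6 by 0.93 and 0.72, and CANX by 0.73 and 0.82, all higher in PANC1. HERPUD1 was lower in PANC1, by -1.01 and -0.77, as was HSP90B1, by -0.77 and -0.41. For HSPA5 the values were 0.35 and 0.25. The signs of SDF2L1 and XBP1 differed between the times, at -0.23 and 0.13 and at -0.33 and 0.15. The value distributions of the lines do not coincide, and after quantile normalization over all 12 columns CALR differed by 1.15 and 0.70 and HERPUD1 by -1.09 and -0.86.

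Across the 12 columns, centred within each line, the 45 pairs of members had Pearson correlations from -0.82 to 0.88 with a median of -0.04, and 21 were above 0 and 24 below. The highest were HERPUD1 with XBP1 at 0.88 and with HSPA5 at 0.85, and PDIA4 with CANX at 0.84 and with CALR at 0.82. HERPUD1 with CANX was the lowest, at -0.82. These are descriptions over 12 columns that share treatments and DMSO columns. Patterns were compared among 1249 other genes, above the limit in all 12 columns and at least as variable as the median member. Most like that of HSPA5 were FTHL11, FTH1 and FTHL2, at 0.95, 0.95 and 0.95, then KCNG1 and ABCC3 at 0.94 and 0.94. FTHL11, FTH1 and FTHL2 are rows of ferritin heavy chain and like sequences whose probes may read the same transcript. Most like the mean of the members were KRT18P13 at 0.86, FLJ40504 at 0.85, KRT18P17 and LOC399965 at 0.82, and CLDN7 at 0.81.

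The neighbouring pathways were read from 9 lists that leave out the members, the same fold being used. Of the sensors and transducers, ATF6 was the 1 gene to pass, and it did so with ICG-001 in all 4 comparisons. ATF6 was 2.48-fold and 2.21-fold higher in HCT116, from 1036 and 838 in DMSO, and 1.64-fold and 1.81-fold higher in PANC1, from 1002 and 1092. With C646 the ATF6 log2 ratios of HCT116 were 0.29 and 0.33, those of PANC1 -0.08 and 0.16. ERN1, the gene of IRE1, was at 0.54 and 0.51 with ICG-001 in HCT116, under the threshold, and EIF2AK3, the gene of PERK, at 0.23 and -0.22.

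Among BiP cofactors and other ER chaperones, HCT116 with ICG-001 at 96 h had 6 of 14 genes higher and 0 lower, against 5.42% and 5.39%. The 6 were DNAJB11, DNAJC10, SIL1, CRELD2, SERPINH1 and TOR1A, and the list median was 0.33. In DMSO this list lay lower at 96 h than at 12 h in HCT116, with a median of -0.22 and SERPINH1 called lower, and over both DMSO columns DNAJC10 and SIL1 made 2 of 14 higher. PANC1 had 1 higher, the collagen chaperone SERPINH1, and 2 lower, HYOU1 and ARMET (MANF), with a median of -0.27, and ARMET did not pass over the 12 h DMSO column. At 12 h SIL1, the nucleotide exchange factor of BiP, was the 1 of 14 to pass in HCT116, at 1.57-fold, and it was 1.95-fold higher at 96 h. HYOU1, another exchange factor, was lower with C646 in all 4 comparisons, over either DMSO column, by 1.96-fold and 2.04-fold in HCT116 and by 2.60-fold and 2.01-fold in PANC1. In those C646 columns the log2 ratio of HSPA5 itself was at most 0.49.

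Of the disulfide isomerases and oxidation enzymes, 0 of 12 passed with ICG-001 at 12 h in HCT116, and TXNDC12 and ERP29 made 2 of 13 higher at 96 h. In PANC1 0 of 12 passed at either time. Of the calnexin cycle and glycan genes, UGCGL2 and MAN1B1 made 2 of 8 higher in HCT116 at 96 h and 0 of 8 passed in PANC1, although CANX and CALR were low there. Of 18 degradation genes, 2 were higher at each time in HCT116, SELS, known as SELENOS, at 1.81-fold and 1.52-fold with DERL2 at 12 h and UBE2J1 at 96 h, and 0 passed in PANC1. SRPRB at 2.16-fold and 1.90-fold and SEC11C at 1.52-fold and 1.83-fold were among 3 and 4 of 16 translocon genes higher in HCT116, while SEC62 and SPCS3 were lower in PANC1 at 96 h. Of 12 COPII genes, SEC23A, SEC24D and SEC31A were lower at 96 h in HCT116, and SEC31A in PANC1. Over both DMSO columns, 0 of 18 degradation genes, 1 of 16 translocon genes, SEC11C, and 0 of 12 COPII genes passed at 96 h in HCT116, and SPCS3 and SEC31A in PANC1.

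The list of ATF4 and CHOP genes, which stands for the PERK branch here, moved most. PERK activity was not measured, and which signal raised these genes was not tested. With ICG-001, 9 and 8 of 11 genes were higher in HCT116 at 12 and 96 h, against 5.09% and 5.42% of all genes. In PANC1 11 and 9 of 12 were higher, against 2.32% and 4.06%, and 0 were lower in either line. The pseudokinase TRIB3 was 5.03-fold and 6.63-fold higher in HCT116 and 6.63-fold and 4.28-fold in PANC1, and DDIT3 5.73-fold and 3.73-fold against 1.77-fold and 2.19-fold. PPP1R15A (GADD34), which restores translation, was 5.88-fold and 1.99-fold higher in HCT116 and 2.17-fold and 1.91-fold in PANC1. With C646, DDIT3 and TRIB3 were higher in HCT116 at 96 h, against 1.99% of all genes, and no gene of the list passed in the other 3 comparisons. Over the 12 h DMSO column DDIT3 still passed, at 0.64, whereas TRIB3 stood at -0.03 and did not. In PANC1 in DMSO, 5 of 11, namely ATF4, TRIB3, ASNS, DDIT4 and CEBPB, were higher at 96 h than at 12 h, against 1.02% of all genes. Over both DMSO columns of a line the counts with ICG-001 were 8 and 6 of 11 in HCT116 and, in PANC1, 3 of 12 at 12 h and 9 of 12 at 96 h. The heat shock chaperones, cytosolic except for the mitochondrial HSPD1 and HSPE1, serve other compartments. With ICG-001 in HCT116 at 12 h, 8 of 11 were lower, HSPE1 among them, against 4.39% of all genes. Of these 8, 3 passed over both DMSO columns. In PANC1 0 of 12 were lower. At 96 h in HCT116 1 of 11 was higher, HSPA8, and 1 lower, HSP90AB1, which was 1.64-fold and 1.87-fold lower in HCT116 at 12 and 96 h.

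**Figure D4:**
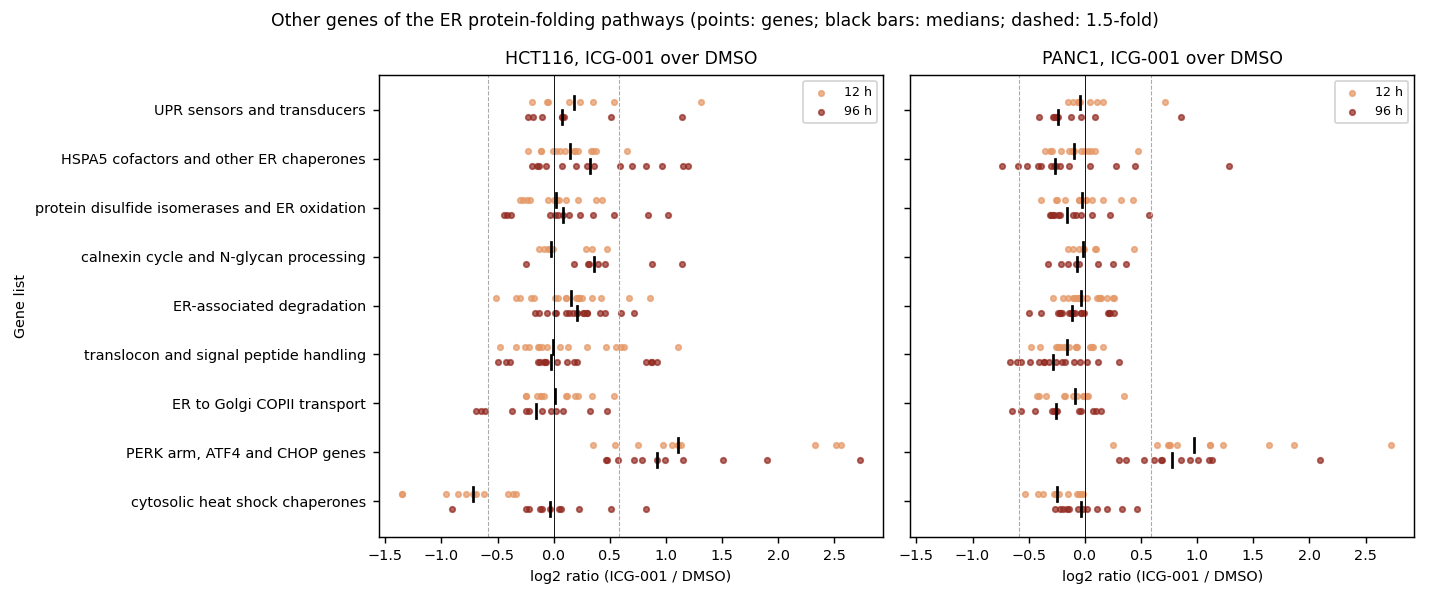
log2 ratio of ICG-001 over DMSO (horizontal axis) for the genes of 9 lists (rows), without the 10 members, in HCT116 (left) and PANC1 (right), at 12 h in light and 96 h in dark colour; each point is 1 gene above the limit, black bars are list medians and dashed lines mark 1.5-fold. The list of ATF4 and CHOP genes, drawn as the PERK arm, lies to the right in both lines. Its HCT116 medians are 1.11 at 12 h and 0.92 at 96 h, its PANC1 medians 0.97 and 0.77. Medians of the other 8 lists lie between -0.72 and 0.36.

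The promoter elements printed above were also held by genes outside the set. Of 44 genes with an exact ERSE or ERSE-II, 8 were members, and of the other 36, 28 were listed and 21 were above the limit. With ICG-001 at 96 h in HCT116, CRELD2, FICD and SHCBP1 made 3 of the 21 higher and EIF2A, TRIM5 and PLS3 made 3 lower, beside 5.42% and 5.39% of all genes, and FICD, SHCBP1 and TRIM5 passed over both DMSO columns. At the same time in PANC1 NAV2 was higher and TRIM5 and HYOU1 lower, against 4.06% and 3.76% of all genes, and NAV2 did not pass over the 12 h DMSO column. Their median log2 ratio was -0.04 in both. HYOU1, which holds an ERSE-II, was lower in 5 of 8 drug comparisons. SHCBP1, which also holds one, went the other way. It was higher in HCT116 with ICG-001 at both times and C646 at 12 h. In PANC1 it was higher with ICG-001 at 12 h and C646 at both times. Over DMSO of the other time its ICG-001 12 h values were 0.46 in HCT116 and 0.28 in PANC1, under the threshold. CRELD2, with an ERSE, was higher with C646 at 12 h in both lines, in PANC1 only over the 12 h DMSO column. Within the set, HERPUD1 and SDF2L1 share ERSE-II and stood at 1.17 and -0.62 with ICG-001 at 96 h in PANC1, and HSPA5 and CALR share ERSE and stood at 0.61 and -1.35.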

How the data were processed

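RNA of HCT116 and PANC1 cells was hybridised to Illumina HumanHT-12 v4 BeadChips. The deposited values are signal intensities per gene, which the authors exported from GenomeStudio after quantile normalization without background subtraction and averaged over the arrays of a group. Because background was kept, ratios of dim genes are compressed. Annotation builds of the array are not given in the sources used here. From these intensities log2 ratios between columns were computed (Python 3.11.15, numpy 2.4.6, pandas 2.3.3, scipy 1.17.1, plots with matplotlib 3.10.9). A gene was taken as detected in a column above the mode of the log2 values plus 2.33 SD, the SD coming from the values below the mode, and a gene entered a comparison if it passed in at least 1 of its columns. A ratio of 1.5 counted as changed. Arrays number 2 or 3 per column, which limits precision, and no test was run because a group had 1 column. The scripts were tested on simulated data. The 10 genes and all lists were chosen with earlier results of these data known. Named besides the members were up to 3 genes per list that passed at both times of a drug with the largest mean ratio, markers, genes behind small counts, and the 5 genes most like HSPA5 or the members' mean. Of 124 list symbols all were matched, 9 by older names. Alternatives were folds of 1.2 and 2, no filter, a limit at 5 SD, median centring, normexp background correction with an offset of 16 (limma 3.58.1, R 4.3.3), quantile normalization over 12 columns, leaving out each member and, added after the data were seen, the DMSO column of the other time. The genes with promoter elements were also counted after the data were seen. Columns of the single arrays were not used here. A marker gene of the lists is not reported here.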

Additional observations from a re-analysis of the deposited data

Results flagged for a closer look

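DNAJB9 is listed for its signs under C646, above 0 in HCT116 and below 0 in PANC1 at both times. Its log2 ratios over DMSO were 0.01 and 0.64 at 12 and 96 h in HCT116 and -0.10 and -0.20 in PANC1, so that the mean over both times was 0.47 higher in HCT116. The difference was not tested, and the value of 0.01 is within the SD of genes under the limit. Over DMSO of the other time the PANC1 value at 96 h was 0.035, so that its sign turned.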

How the results depend on the processing

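No paired analysis was possible because each group had 1 column. With a fold of 1.2, the number of members changed became 8 for ICG-001 at 12 h in HCT116 (5 at 1.5-fold), 5 and 5 for C646 at 12 and 96 h in HCT116 (0 and 1), and in PANC1 6 for ICG-001 at 12 h (1) and 4 for C646 at 96 h (1). Of all genes, 16.8% were then higher and 17.4% lower for ICG-001 at 12 h in HCT116. For C646 in HCT116 the shares were 11.2% and 11.9% at 12 h and 10.3% and 10.4% at 96 h. In PANC1 they were 10.2% and 7.99% for ICG-001 at 12 h, and 10.6% and 11.9% for C646 at 96 h. With a fold of 2 the number of members became 2 and 2 for ICG-001 in HCT116 and 0 for C646 at 96 h, and in PANC1 0 for ICG-001 at 12 h and 1 and 0 for C646 at 12 and 96 h. No share of all genes higher, or lower, exceeded 1.45% in these comparisons. With normexp the number of members was 1 for C646 at 12 h in HCT116 and 2 for ICG-001 at 12 h in PANC1, the gene gained being CALR in both, and with quantile normalization over 12 columns 2 for the latter. With normexp 6.59% of all genes were higher and 5.45% lower in the first comparison, and 5.04% and 2.17% in the second. With the quantile normalization 2.11% and 0.44% were in the second. With DMSO of the other time the number of members was 1 and 0 for C646 and ICG-001 at 12 h, in HCT116 and PANC1, and 0 and 2 for C646 at 12 and 96 h in PANC1. Shares of all genes higher and lower were then 6.15% and 5.98% for C646 at 12 h in HCT116. In PANC1 they were 0.822% and 0.587% for ICG-001 at 12 h. For C646 in PANC1 they were 2.20% and 1.16% at 12 h and 6.13% and 4.13% at 96 h. Medians of the members then became 0.087 and 0.29 for ICG-001 in HCT116, -0.12 and -0.018 for ICG-001 in PANC1, and -0.13 and 0.16 for C646 in PANC1, and the member median of HCT116 minus that of PANC1 went from 0.43 to 0.31 for ICG-001 at 96 h and from 0.035 to 0.27 for C646 at 12 h. Leaving out each member moved the median within 0.13 to 0.35 and 0.06 to 0.18 for ICG-001 at 12 and 96 h in HCT116, 0.035 to 0.25 and 0.01 to 0.15 for C646, 0.05 to 0.07 and -0.52 to -0.091 for ICG-001 in PANC1, and 0.08 to 0.14 and 0.06 to 0.09 for C646. No change of 1.5-fold or more in a member turned its direction under any of these settings, which was checked for the members and not for the lists. Dropping the filter, a stricter limit and median centring changed no count of members. Signal over background limits the dim genes most, and the PDIA4 ratio with ICG-001 grew from -0.57 to -0.86 at 12 h in HCT116 under normexp. No spread between cultures could be set against any ratio.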
